A study of Homo sapiens with 6 samples.

Results

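The genes described here are the corticosteroid receptors, the enzymes that set their ligand, and a set of genes that the receptors are known to induce, in ME180 cells. They were taken by name from the deposited expression table and number 10 of its 58302 genes: NR3C1, NR3C2, HSD11B1, HSD11B2, FKBP5, TSC22D3, ZBTB16, KLF9, ERRFI1 and CRISPLD2. ME180 is an established human cervical cancer line of epithelial morphology. Cells received a control small interfering RNA (siControl) or an siRNA against SGK1 (siSGK1), a kinase whose full name is serum and glucocorticoid regulated kinase, and polyA RNA was sequenced 48 h later. Each group held 3 biological repeats, labelled 2, 3 and 4. No hormone treatment is named in the labels for either group, and no source used here gives the hormone content of the medium or the siRNA sequences. All values therefore come from a single cell line without a labelled steroid stimulus.

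Cortisol and related steroids enter cells by diffusion and bind the glucocorticoid receptor, encoded by NR3C1, or the mineralocorticoid receptor, encoded by NR3C2. The unliganded receptor is held by heat shock proteins and cochaperones. After binding hormone it moves to the nucleus, where it binds response elements and raises or lowers transcription. HSD11B2 oxidises cortisol to inactive cortisone, and by doing so keeps the mineralocorticoid receptor free for aldosterone. HSD11B1 runs the opposite reaction. SGK1 is itself a well-known target of both receptors, and it acts on epithelial sodium transport.

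Of the 10 genes, 7 were tested and 3 passed the test for a difference between siSGK1 and siControl, beside 40.6% of all tested genes. TSC22D3, which encodes the glucocorticoid-induced leucine zipper protein GILZ, fell to 63.0% of its siControl level. HSD11B2 fell to 61.8%. ERRFI1, which encodes a feedback inhibitor of the EGF receptor, rose 1.23-fold. Both receptors, KLF9 and CRISPLD2 did not pass, FKBP5 lay below the level filter, and HSD11B1 and ZBTB16 gave almost no reads or none.

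The values were deposited as FPKM, which scale fragments by the length of the gene and the size of the library, so that levels can be compared between genes. Genes were tested as log2(FPKM + 0.5) with limma if their mean FPKM was at least 1, and called at a Benjamini-Hochberg adjusted p below 0.05 over all 11945 such genes. Fold changes on this log2 scale understate the change of low genes, so linear ratios of mean FPKM are given beside them. The filter kept 7 of the 10 genes. Calls were common in this experiment: 4852 of the 11945 tested genes (40.6%) were called, 2143 higher (17.9%) and 2709 lower (22.7%). Of the 7 tested genes here, 3 were called, 1 higher and 2 lower. Their median log2 difference was −0.18, beside −0.0060 over all tested genes. The 3 siControl and 3 siSGK1 values did not overlap for 5 of the 7 genes, and for 53.4% of all tested genes. The share called among the 7 is near that of the whole table, so the account below concerns single genes and not the set. In RNA from whole cultures, fewer cells expressing a gene and less RNA per cell cannot be told apart.

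SGK1 itself checked the labels. It stood at 3.91, 4.27 and 4.17 FPKM in siControl 2, 3 and 4 and at 1.58, 1.70 and 1.81 FPKM in the siSGK1 libraries, which is 41.2% of the siControl mean (log2 difference −1.07, SE 0.07, adjusted p 1.88e-05, limma). The 6 libraries held 27262794 to 35242643 reads in genes. All 9 epithelial markers examined, among them KRT5, CDH1, EPCAM and TP63, had a mean of at least 1 FPKM. Their summed level was 10471.5 to 11285.5 FPKM in siControl and 6823 to 7937 FPKM in siSGK1. KRT5, KRT19, KRT17, KRT14 and KRT8 were lower in every siSGK1 library than in any siControl library, whereas the groups overlapped for KRT18, CDH1 (42.6 to 43.4 FPKM in siControl, 42.9 to 44.0 in siSGK1), TP63 and EPCAM. The part of the keratin shift in the results below was not tested. Of 6 fibroblast markers, COL1A1 alone reached a mean of 1 FPKM (summed level 4.70 to 5.25 FPKM in siControl and 4.87 to 5.72 in siSGK1). None of 6 leukocyte markers did (0.165 to 0.233 and 0.166 to 0.383 FPKM), nor any of 5 endothelial markers (1.42 to 1.70 and 0.735 to 0.937 FPKM), of which PECAM1 was at 0 in every library.

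**Figure D1:**
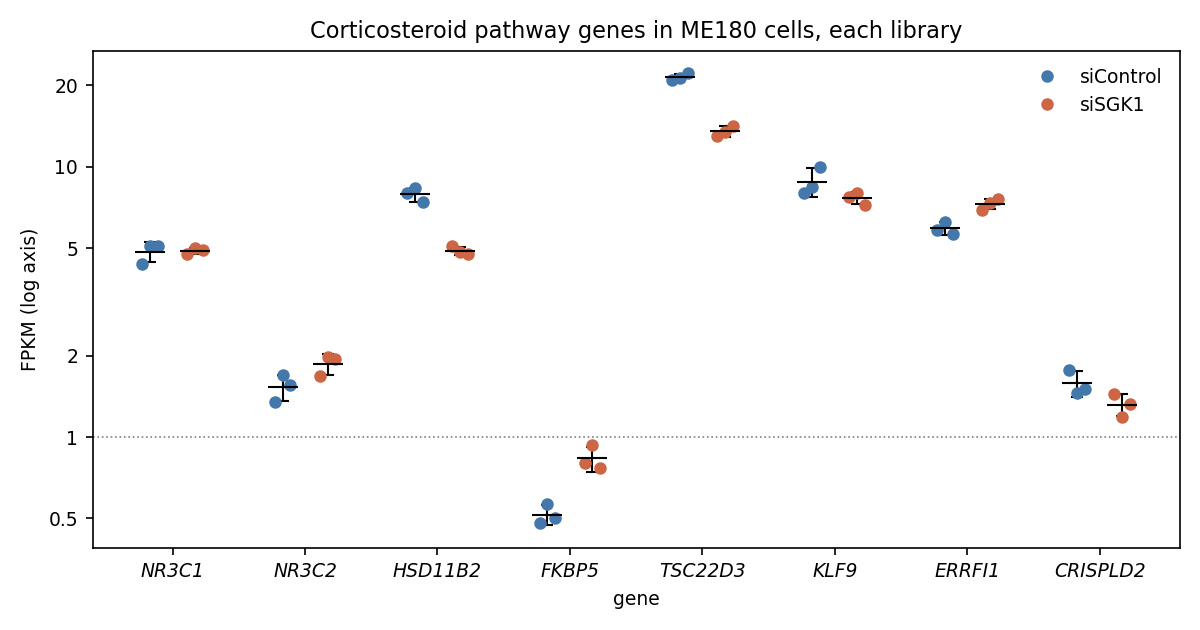
FPKM of the corticosteroid pathway genes in each library, on a log axis, with siControl and siSGK1 side by side; dots are libraries, bars give the mean and SD of 3, and the dotted line marks 1 FPKM. TSC22D3 is the highest gene in both groups, HSD11B2 and TSC22D3 are lower in all siSGK1 libraries than in any siControl library, and FKBP5 lies below 1 FPKM throughout.

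The receptors come first. NR3C1, encoding the glucocorticoid receptor (ENSG00000113580, chromosome 5, 143277931 to 143435512, minus strand, GRCh38), was measured at 4.38, 5.11 and 5.07 FPKM in siControl 2, 3 and 4 and at 4.76, 4.99 and 4.91 FPKM in siSGK1 2, 3 and 4. The groups overlapped, and siControl 2 was the lowest library of all. The siControl mean was 4.86 ± 0.41 FPKM and the siSGK1 mean 4.89 ± 0.12 FPKM (SD, n = 3 each). The log2 difference was 0.011 with a 95% interval from −0.14 to 0.16 (adjusted p 0.909, limma), so the data allow a change of that size in either direction.

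NR3C2, encoding the mineralocorticoid receptor (ENSG00000151623, chromosome 4, 148078762 to 148444698, minus strand), was lower, at 1.35, 1.69 and 1.56 FPKM in siControl and 1.68, 1.98 and 1.94 FPKM in siSGK1. The groups overlapped only through siControl 3 and siSGK1 2, which were almost equal. The siControl mean was 1.53 ± 0.17 FPKM and the siSGK1 mean 1.86 ± 0.16 FPKM, a ratio of 1.22 that did not pass the test (log2 difference 0.22, SE 0.09, adjusted p 0.0879, limma). Scaling by total reads (0.33, adjusted p 0.024), TPM scaling (0.38, 0.0128) and a read-based fit (0.29, 0.0237) each brought NR3C2 past the threshold. Total-read and TPM scaling also moved the median of all tested genes by 0.12 and 0.18, and relative to that median the NR3C2 difference was 0.21 and 0.20, against 0.23 with the deposited values.

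The glucocorticoid receptor transcript exceeded the mineralocorticoid receptor transcript in every library. The ratio of NR3C1 to NR3C2 in FPKM was 3.25, 3.02 and 3.26 in siControl and 2.83, 2.52 and 2.53 in siSGK1. Every siSGK1 ratio lay under every siControl ratio (3.18 ± 0.14 and 2.63 ± 0.18, SD, n = 3 each). By exact permutation (two-sided) p was 0.1, which is the lowest value 3 against 3 libraries can reach, and 0.1 after adjustment over the 3 ratios computed. Among other steroid receptor genes, ESR1, the estrogen receptor alpha gene, stood at 1.55 ± 0.0076 FPKM in siControl and 1.54 ± 0.07 in siSGK1. PGR, the progesterone receptor gene, had 0 to 1 read per library, and ESR2, the estrogen receptor beta gene, had 1 to 5.

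The 2 enzymes stood far apart in level. HSD11B2 (ENSG00000176387, chromosome 16, 67430652 to 67437553, plus strand) was read at 7.97, 8.33 and 7.41 FPKM in siControl and 5.07, 4.83 and 4.75 FPKM in siSGK1. All siSGK1 libraries were below all siControl libraries, with a gap wider than the range within either group. The mean fell from 7.90 ± 0.47 to 4.88 ± 0.17 FPKM (SD, n = 3 each), a 1.62-fold decrease in the linear means (log2 difference −0.64, SE 0.06, 95% interval −0.77 to −0.51, adjusted p 9.13e-05, limma). The gene ranked 609 of 11945 by the absolute size of its log2 difference. These values rest on 534 to 578 reads per siControl library and 399 to 465 per siSGK1 library.

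HSD11B1, the enzyme of the reverse reaction (ENSG00000117594, chromosome 1, 209686178 to 209734950, plus strand), had a single read, in siControl 3, where it was listed at 0.0255 FPKM. In the other libraries it was listed at 0. A limit of 3 reads corresponds to 0.0541 to 0.0764 FPKM in these libraries, so HSD11B1 was not detectable above that level, and no fold is given. This limit covers counting error only. H6PD, which supplies the cofactor of HSD11B1, was expressed at 4.90 ± 0.12 FPKM in siControl and 4.998 ± 0.29 in siSGK1 (adjusted p 0.763). The HSD11B2 to NR3C2 ratio in FPKM was 5.90, 4.92 and 4.76 in siControl and 3.02, 2.44 and 2.45 in siSGK1. Groups of this ratio did not overlap (5.20 ± 0.62 and 2.64 ± 0.33, exact permutation p = 0.1, adjusted 0.1). HSD11B2 did not overlap between the groups by itself, so the ratio is not a separate result.

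Among the receptor-induced genes, TSC22D3 was the most abundant. It encodes a leucine zipper protein that restrains inflammatory transcription factors (ENSG00000157514, chromosome X, 107713221 to 107777342, minus strand). It was measured at 21.0, 21.3 and 22.2 FPKM in siControl and 13.0, 13.5 and 14.2 FPKM in siSGK1. The libraries of each group lay close together and the groups were far apart. The mean fell from 21.5 ± 0.62 to 13.5 ± 0.60 FPKM, a 1.59-fold decrease (log2 difference −0.65, SE 0.05, 95% interval −0.76 to −0.53, adjusted p 4.11e-05, limma). By absolute size it ranked 592 of 11945, close to HSD11B2.

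ERRFI1 moved the other way. The gene (ENSG00000116285, chromosome 1, 8004404 to 8026308, minus strand) was at 5.84, 6.27 and 5.64 FPKM in siControl and 6.94, 7.37 and 7.58 FPKM in siSGK1. All siSGK1 libraries were above all siControl libraries, by a gap about as wide as the spread within a group. The mean rose from 5.91 ± 0.32 to 7.30 ± 0.33 FPKM (log2 difference 0.28, SE 0.06, 95% interval 0.15 to 0.42, adjusted p 0.00558, limma). ERRFI1 ranked 3251 of 11945 by absolute size, so larger changes were frequent in the table.

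KLF9, a Krüppel-like repressor of transcription that glucocorticoids and thyroid hormone induce (ENSG00000119138, chromosome 9, 70384597 to 70414624, minus strand), stood at 7.991, 8.39 and 10.01 FPKM in siControl and 7.75, 7.987 and 7.24 FPKM in siSGK1. The groups just missed each other, siControl 2 and siSGK1 3 being almost equal, and siControl 4 was the high library. The means of 8.80 ± 1.07 and 7.66 ± 0.38 FPKM did not pass the test (log2 difference −0.18, SE 0.08, adjusted p 0.107, limma). The sign depended on the scaling, at 0.0089 with TPM scaling (adjusted p 0.941), while relative to the median of all genes it was −0.17 there and −0.18 with the deposited values.

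CRISPLD2, a secreted protein gene that glucocorticoids induce in airway smooth muscle (ENSG00000103196, chromosome 16, 84819984 to 84920768, plus strand), was at 1.78, 1.46 and 1.51 FPKM in siControl and 1.44, 1.19 and 1.33 FPKM in siSGK1. Here too the groups were separated by a small margin, between siControl 3 and siSGK1 2. The means were 1.58 ± 0.17 and 1.32 ± 0.12 FPKM (log2 difference −0.19, SE 0.09, adjusted p 0.129, limma). With the read-based fit both KLF9 (−0.20, adjusted p 0.0338) and CRISPLD2 (−0.26, adjusted p 0.0351) passed. With total-read and TPM scaling the CRISPLD2 difference was −0.089 and −0.042 (adjusted p 0.434 and 0.705), or −0.21 and −0.22 relative to the median of all genes there.

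FKBP5, an HSP90 cochaperone that lowers the hormone affinity of the glucocorticoid receptor and is widely used to read out its activity (ENSG00000096060, chromosome 6, 35573585 to 35728583, minus strand), was low. It stood at 0.481, 0.566 and 0.503 FPKM in siControl and 0.800, 0.935 and 0.768 FPKM in siSGK1, from 134 to 156 and from 250 to 329 reads per library. Every siSGK1 library was above every siControl library, and the ratio of the means (0.834 ± 0.088 over 0.516 ± 0.044 FPKM) was 1.62. In the fit without a level filter, over all 31878 genes with at least 1 read, FKBP5 did not pass (log2 difference 0.39, SE 0.10, adjusted p 0.0533, limma). That fit held 9 of the 10 genes and called the same number, 3, again 1 higher and 2 lower, beside 11.8% of all its genes (5.25% higher and 6.56% lower). The call of FKBP5 turned on the setting: adjusted p ran from 0.000135 with the read-based fit (log2 difference 0.69) to 0.13 with the replicate number as a block, and was 0.0181 when genes with a mean of at least 0.5 FPKM were tested, a filter chosen after the values were seen. Without a level filter, leaving out any library except siControl 3 ended the call of ERRFI1 (adjusted p 0.0508 to 0.096), and 2 of the 10 genes were then called.

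ZBTB16, encoding the zinc finger protein PLZF and strongly induced by corticosteroids in many tissues (ENSG00000109906, chromosome 11, 114059593 to 114250676, plus strand), had 0 reads in all 6 libraries. A count of 0 allows up to 3 reads, or 0.0129 to 0.0181 FPKM in these libraries.

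**Figure D2:**
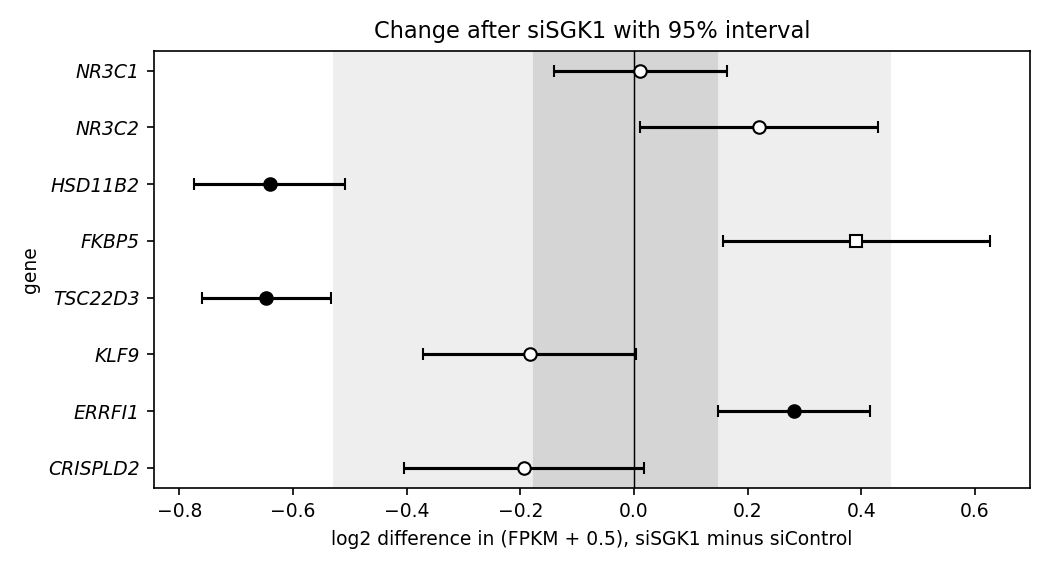
Log2 difference in FPKM + 0.5 between siSGK1 and siControl for each gene, with its 95% interval; filled points passed the test, the square is FKBP5 from the fit without a level filter, and the shaded bands hold the middle 50% and 90% of all tested genes. TSC22D3 at −0.65 and HSD11B2 at −0.64 lie to the left of both bands, and ERRFI1 at 0.28 lies between the edges of the bands on the right.

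The induced genes therefore did not share a direction: TSC22D3 fell, ERRFI1 rose, and FKBP5 was higher in each siSGK1 library without passing the test. The ratio of TSC22D3 to FKBP5 in FPKM was 43.6, 37.7 and 44.1 in siControl and 16.2, 14.4 and 18.5 in siSGK1. No siSGK1 library came near the siControl range (41.8 ± 3.6 and 16.4 ± 2.0, exact permutation p = 0.1, adjusted 0.1 over 3 ratios). Since TSC22D3 was lower and FKBP5 higher in every siSGK1 library, the ratio had to separate the groups, and its p adds no support. The order of the levels also shifted. In siControl it ran TSC22D3, KLF9, HSD11B2, ERRFI1, NR3C1, CRISPLD2, NR3C2 and FKBP5, where KLF9 overlapped HSD11B2 and CRISPLD2 overlapped NR3C2. In siSGK1 it ran TSC22D3, KLF9, ERRFI1, NR3C1, HSD11B2, NR3C2, CRISPLD2 and FKBP5, where KLF9 overlapped ERRFI1 and NR3C1 overlapped HSD11B2.

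Because the induced genes are known for receptor binding at response elements, their promoter windows are shown where they hold letters of interest. RefSeq windows (GRCh38.p14) of 300 bases, from 250 before to 50 after a start site, were matched by symbol: 21 windows covered 8 of the 10 genes, with none for HSD11B2 and ZBTB16. The half-site of the glucocorticoid response element, AGAACA on either strand, was in 1 of the 21 windows and in 14.8% of all 35116 windows. That window belongs to FKBP5 (chr6:35728534-35728833, minus strand, 55.7% G and C), where the half-site, in capitals, begins at the annotated start. The second sequence is a TSC22D3 window (chrX:107717013-107717312, minus strand, 49.7% G and C), with the forkhead motif TGTTTAC and the letters TATAAA in capitals.
FKBP5: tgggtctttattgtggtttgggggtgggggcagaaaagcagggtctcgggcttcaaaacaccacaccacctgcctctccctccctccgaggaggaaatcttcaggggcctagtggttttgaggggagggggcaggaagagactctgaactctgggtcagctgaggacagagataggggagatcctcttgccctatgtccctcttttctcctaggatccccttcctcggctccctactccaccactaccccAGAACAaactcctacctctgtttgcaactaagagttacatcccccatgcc
TSC22D3: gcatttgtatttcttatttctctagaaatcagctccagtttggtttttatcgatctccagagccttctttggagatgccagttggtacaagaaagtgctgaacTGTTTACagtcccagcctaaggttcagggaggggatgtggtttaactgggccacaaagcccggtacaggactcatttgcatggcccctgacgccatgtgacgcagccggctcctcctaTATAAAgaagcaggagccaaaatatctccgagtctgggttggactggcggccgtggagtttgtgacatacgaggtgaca

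These windows are shown because they hold the response half-site and the rarer of the other motifs in genes that the results turn on. The palindrome of AGAACA and TGTTCT with 3 bases between them occurred in 1 window of the whole table and in none of these 21, and a looser core of it in 0.39% of all windows and none of the 21. TGTTTAC was in 3.42% of all windows and in 1 window each of TSC22D3 and NR3C1. TATAAA was in 11.5% of all windows and again in 1 each of TSC22D3 and NR3C1. The GC box GGGCGG was in 44.95% of all windows and in 15 of the 21, from 6 genes: CRISPLD2, ERRFI1, FKBP5, NR3C1, NR3C2 and TSC22D3. All motifs were searched on both strands, and a match is only a match of letters.

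Earlier work on these data had singled out 4 heptamers in 3' UTRs, CTATGCA and TATGCAA for genes that fell and TCGGAGA and CGGAGAA for genes that rose, so their presence in these 10 genes is given as a description. The longest GENCODE 29 UTR of 5 genes held such a heptamer, shown in capitals within 30 bases of mRNA sequence with its position in the UTR.
NR3C2, base 1976 of 2582: gacacctgcctTATGCAAggggaaacctgt
NR3C2, base 2511 of 2582: atttatatcttTATGCAAaaacatatgtct
FKBP5, base 3503 of 6419: tacatgatataTATGCAAgagctttcaaaa
KLF9, base 597 of 3179: acagctgtcttTATGCAAgcaagagcacat
ERRFI1, base 1295 of 1843: ggacaaatcaaCTATGCAtattttgatacc
CRISPLD2, base 1695 of 2868: agccccaaatgTCGGAGAggaagaattcgg

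TSC22D3 and HSD11B2, which fell, held none of the 4 heptamers, and neither did NR3C1, HSD11B1 or ZBTB16. ERRFI1, which rose, held CTATGCA. That heptamer was in 8.51% of 10269 tested coding genes with a UTR of at least 50 bases (median log2 difference −0.08), TATGCAA in 11.4% (−0.026), TCGGAGA in 2.13% (0.08) and CGGAGAA in 2.45% (0.07), where the median of all these genes was −0.0083. Because the heptamers were singled out on these same data, the directions of their medians add no support.

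The chaperones and cochaperones that hold the unliganded receptor were frequently called. Of 16 listed genes 15 were tested, and 12 were called (80%, beside 40.6% of all tested genes), 9 higher and 3 lower, with a median log2 difference of 0.14. The count was also 12 at a mean of at least 5 FPKM, where 50.5% of all tested genes were called. It was 8 without a level filter, with the replicate number as a block, without siControl 2 and without siControl 3. The shares of all tested genes called in those settings were 11.8%, 38.2%, 33.1% and 31.6%, in that order. DNAJA1, an HSP40 partner of HSP70, rose from 40.4 ± 1.1 to 55.5 ± 1.2 FPKM (log2 difference 0.45, adjusted p 0.000111). AHSA1, which stimulates the ATPase of HSP90, rose from 47.3 ± 1.5 to 60.9 ± 0.7 FPKM (0.36, adjusted p 0.000312). BAG1, an HSP70 nucleotide exchange factor, fell from 26.3 ± 0.9 to 17.2 ± 1.5 FPKM (−0.60, adjusted p 0.000228). FKBP4, the cochaperone that opposes FKBP5 on the receptor, was at 28.1 ± 1.9 and 28.2 ± 0.4 FPKM (adjusted p 0.927).

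The coregulators that receptors recruit at their targets gave a count that depended on the scaling. Of 18 tested genes 2 were called (11.1%, beside 40.6% of all tested genes), both higher, with a median of 0.03. SMARCA4, the ATPase of the SWI/SNF remodelling complex, rose from 16.6 ± 0.3 to 21.1 ± 1.0 FPKM (0.33, adjusted p 0.000976). SMARCD1, another subunit of that complex, rose from 14.9 ± 0.1 to 17.2 ± 0.4 FPKM (0.20, adjusted p 0.00573). MED14, a Mediator subunit, was at 7.35 ± 0.31 and 8.18 ± 0.25 FPKM and did not pass (log2 difference 0.15, adjusted p 0.0539). It passed with total-read scaling (0.28, adjusted p 0.00542), TPM scaling (0.34, 0.00223), quantile normalization (0.16, 0.0423), the read-based fit (0.155, 0.0293) and without siControl 4 (0.18, 0.0391). Exons of MED14 share 132 bases with those of MED14OS on the opposite strand, which had 39 to 93 reads per library. The count was 9 with total-read scaling and 11 with TPM scaling, 4 without siSGK1 2 and 5 without siSGK1 3. Of all tested genes, 49.0% were called with total-read scaling, 57.05% with TPM scaling, 36.1% without siSGK1 2 and 36.3% without siSGK1 3.

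Other genes known to be induced by glucocorticoids split between the directions. Of 40 listed, 29 were tested and 19 called (65.5%, beside 40.6% of all tested genes), 7 higher and 12 lower, with a median of −0.07. MT2A, a metallothionein, rose from 157.3 ± 6.3 to 229.4 ± 5.4 FPKM (0.54, adjusted p 6.22e-05). KLF6, a relative of KLF9, rose from 2.56 ± 0.0074 to 4.17 ± 0.13 FPKM (0.61, adjusted p 8.72e-05). RGS2, which limits G protein signalling, fell from 23.3 ± 1.3 to 14.4 ± 0.9 FPKM (−0.67, adjusted p 9.88e-05). PER1, a clock gene, and DUSP1, a MAP kinase phosphatase, are often used as early receptor targets, and neither passed (adjusted p 0.0809 and 0.666).

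Of 20 listed genes that glucocorticoids are known to repress, 9 were tested. Of these, 8 were called (88.9%, beside 40.6% of all tested genes), 5 higher and 3 lower, with a median of 0.26. EDN1, the endothelin-1 gene, rose from 3.05 ± 0.22 to 5.54 ± 0.48 FPKM (0.77, adjusted p 0.000133). PTGS2, encoding cyclooxygenase-2, rose from 0.933 ± 0.060 to 1.94 ± 0.15 FPKM (0.77, adjusted p 0.000219). Its siControl mean was below 1 FPKM, so it reached the level filter through the siSGK1 libraries. The same held for CCL20, named after its values were seen (0.640 ± 0.158 and 1.36 ± 0.39 FPKM). The higher calls of PTGS2 and CCL20 were therefore in part set by the filter. MMP1, a collagenase, fell from 2.89 ± 0.35 to 1.85 ± 0.03 FPKM (−0.52, adjusted p 0.00156). Most of the list was too low to test, and the count was 5 without siControl 3, where 31.6% of all tested genes were called.

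Of 25 listed genes of steroid metabolism and carriage, 7 were tested and 2 called (28.6%, beside 40.6% of all tested genes), with a median of −0.07. ABCC1, a transporter that exports corticosterone among other substrates, fell from 13.3 ± 0.8 to 9.03 ± 0.35 FPKM (−0.54, adjusted p 0.0002). SRD5A1, a steroid 5-alpha-reductase, rose from 5.58 ± 0.31 to 6.66 ± 0.50 FPKM (0.23, adjusted p 0.0225), a call that ended without siControl 2 (0.0723), siSGK1 3 (0.0596) or siSGK1 4 (0.0517), leaving 1. HSD17B11, a short-chain dehydrogenase, was at 1.16 ± 0.03 and 1.37 ± 0.09 FPKM and did not pass (adjusted p 0.112). The adrenal enzymes that make cortisol and aldosterone were at or near 0: CYP11B1, CYP11B2 and HSD3B1 had 0 reads, CYP21A2 had 0 to 1, CYP17A1 had 1 to 4 and CYP11A1 had 0 to 5 per library.

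The listed transport genes of the aldosterone response were mostly lower. By what route they changed was not tested. Of 14 listed, 10 were tested and 9 called (90%, beside 40.6% of all tested genes), 8 lower and 1 higher, with a median of −0.30. Of all tested genes, 22.7% were called lower and 17.9% higher. SCNN1A, encoding alpha-ENaC of the apical sodium channel, fell from 5.09 ± 0.17 to 1.66 ± 0.15 FPKM (−1.37, adjusted p 8.79e-06). SCNN1B, which encodes beta-ENaC, fell from 4.52 ± 0.19 to 2.73 ± 0.27 FPKM (−0.64, adjusted p 0.0003), the same log2 difference as HSD11B2. ATP12A, a proton-potassium pump, fell from 2.46 ± 0.13 to 0.925 ± 0.042 FPKM (−1.06, adjusted p 2.95e-05). Its siSGK1 mean was below 1 FPKM, so it reached the level filter through the siControl libraries. The gene that was higher was NEDD4L, a ubiquitin ligase that removes the sodium channel from the membrane, named after its values were seen (4.08 ± 0.16 and 5.07 ± 0.13 FPKM, adjusted p 0.00376). Exons of SCNN1A share 45 bases with those of LTBR on the opposite strand, and the strand setting of the counting is not given in the sources used here.

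**Figure D3:**
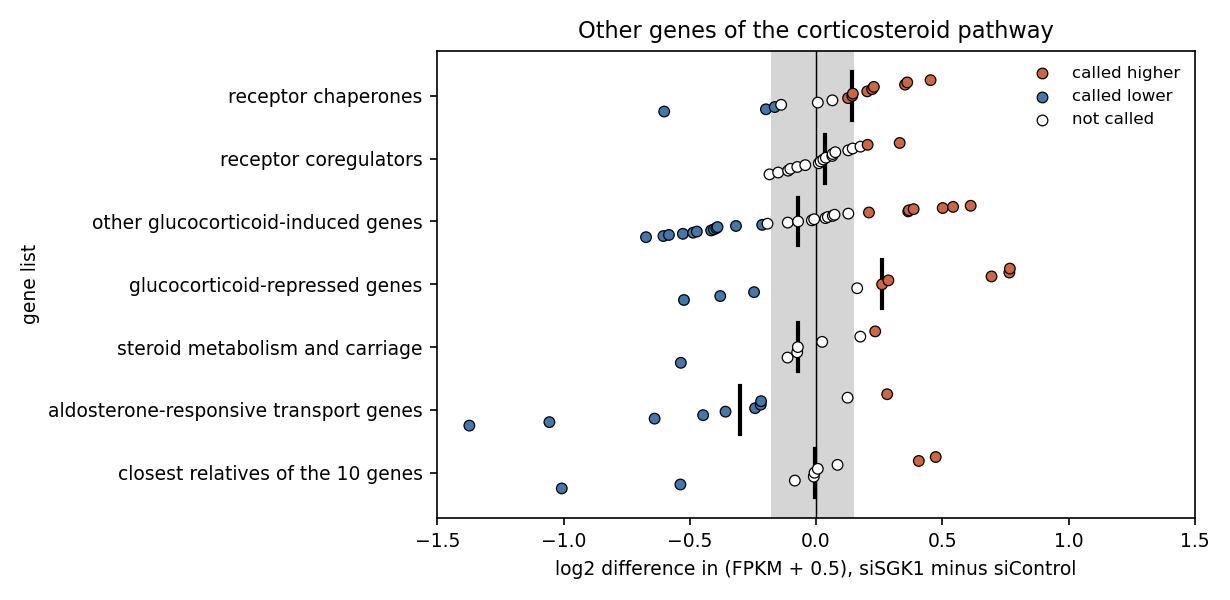
Log2 difference between siSGK1 and siControl of each tested gene in 7 lists of the corticosteroid pathway; colours give the call, vertical bars the median of each list, and the grey band the middle 50% of all tested genes. The aldosterone-responsive transport genes have the lowest median (−0.30) and the glucocorticoid-repressed genes the highest (0.26), while the coregulators lie mostly within the band.

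The closest relatives of the 10 genes gave 4 calls among 9 tested (44.4%, beside 40.6% of all tested genes; median −0.0060), a share near the background. Of the TSC22 family, TSC22D4 fell like TSC22D3, from 15.1 ± 0.3 to 10.3 ± 0.4 FPKM (−0.54, adjusted p 8.18e-05). TSC22D1 rose from 5.47 ± 0.27 to 7.42 ± 0.41 FPKM (0.41, adjusted p 0.00101), and TSC22D2, named after its values were seen, rose from 1.09 ± 0.09 to 1.71 ± 0.09 FPKM (0.47, adjusted p 0.00219). KLF13, a close relative of KLF9, fell from 22.9 ± 0.4 to 11.1 ± 0.5 FPKM (−1.01, adjusted p 7.12e-06), where KLF9 did not pass. TSC22D1 shares exon bases with antisense transcripts, whose reads its value may include. Of these, TSC22D1-AS1 had 6 to 15 reads per library, and AL138960.2 and AL139184.1 had 0.

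The genes whose profiles over the 6 libraries were most like those of the called genes were found by the root mean square difference of log2(FPKM + 0.5), each gene centred on its own mean. For TSC22D3 these were LCN2 (0.029), the siderophore-binding lipocalin, and GJB6 (0.032), a gap junction gene of stratified epithelia. For HSD11B2 they were AMPD3 (0.030), an AMP deaminase, and SCAMP5 (0.033), a secretory carrier membrane protein. For ERRFI1 they were LIMD2 (0.025) and KCNMB4 (0.026), a potassium channel subunit. LCN2 is also in the list of other induced genes. Since likeness was measured over the same 6 libraries, the choice itself fixes that these genes differ between the groups as the gene they resemble does.

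Exons of 4 of the 10 genes overlap an untested transcript on the opposite strand. The partners of HSD11B2 (135 shared bases), TSC22D3 (71), ERRFI1 (155) and CRISPLD2 (206) had 0 to 9 reads per library, against at least 302 reads for each of the genes themselves.

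**Figure D4:**
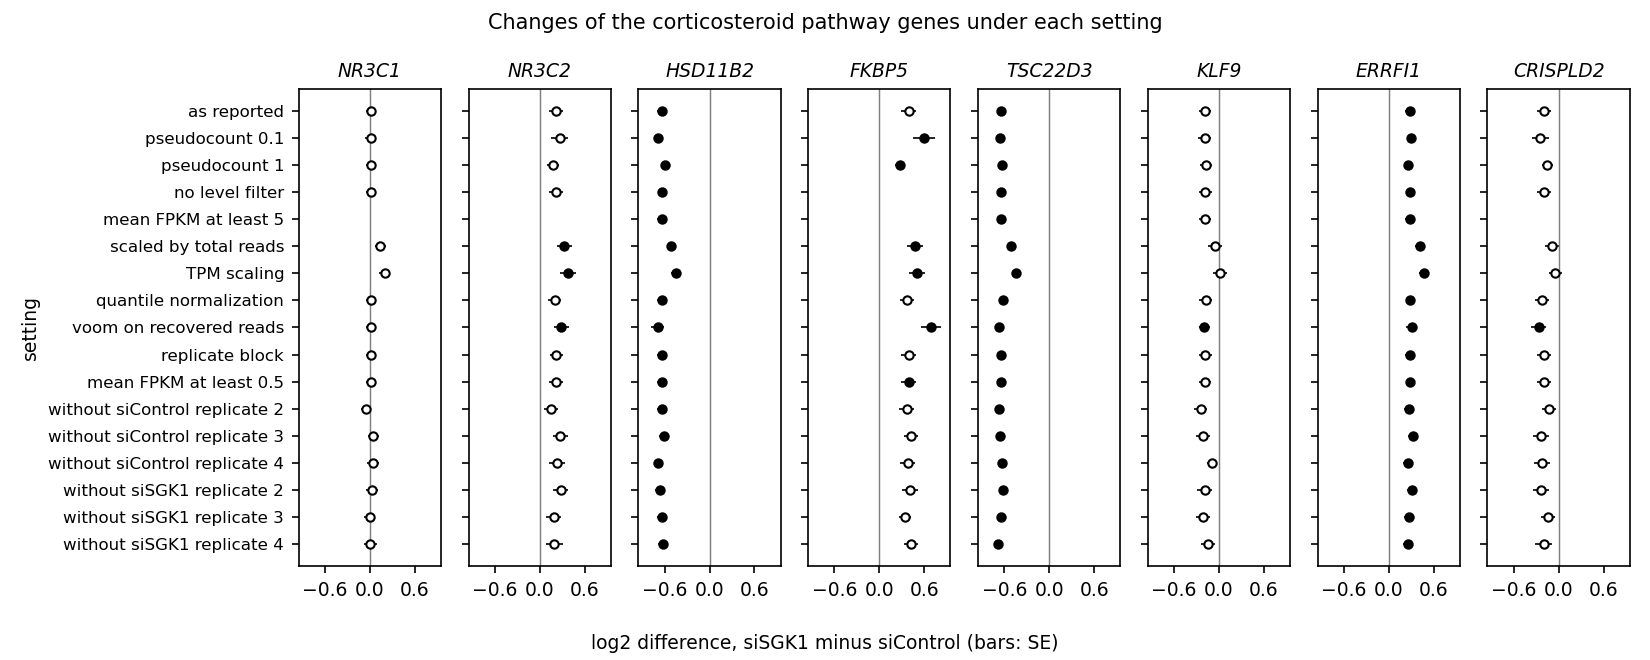
Log2 difference of each gene between siSGK1 and siControl under each processing setting, with the SE; filled points passed the test, and an empty place marks a setting whose filter removed the gene. TSC22D3, HSD11B2 and ERRFI1 are filled in every setting plotted, NR3C1 is open in all of them, and FKBP5 is filled in 6. The FKBP5 points are from the fit without a level filter, except the filled point at the 0.5 FPKM filter, which was chosen after the values were seen.

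TSC22D3, HSD11B2 and ERRFI1 passed the test under every alternative run at the 1 FPKM filter or a stricter one. Over all alternatives run, their log2 differences ranged from −0.68 to −0.45, from −0.69 to −0.45 and from 0.25 to 0.47. With total-read and TPM scaling the share of higher calls among all called genes was 73.6% and 82.8%, against 44.2% with the deposited values. The 2 falls and the rise kept their direction there.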

How the data were processed

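RNA of 6 ME180 cultures was compared, siSGK1 (3) against siControl (3), grouped by the labels. The authors deposited FPKM per gene and library. Per the submitters' processing notes, bcl2fastq 2.19, HISAT2 2.0.5 and featureCounts 1.5.0-p3 were used, with hg19. The deposited gene positions are those of GRCh38: 97.5% of 57980 identifiers shared with GENCODE 29, and all 10 genes described, have the same position there. Multiplying FPKM by gene length and by a single library size per library, recovered from the steps between values, gave whole reads for 100% of values above 0 (tolerance 0.001), 27262794 to 35242643 per library, and size factors are already in the deposited values.

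log2(FPKM + 0.5) was fitted with limma 3.58.1 (R 4.3.3, two-sided, empirical Bayes with intensity trend), with Benjamini-Hochberg adjustment over 11945 genes (mean FPKM of 1 or more), and over 31878 without a filter. Intervals are 95% and unadjusted. The read-based fit is limma's voom on the recovered reads. A value's precision is limited by 3 libraries a group. The fit was tested on simulated counts with the same spread beyond counting error for all genes and few changed genes. Here 40.6% of tested genes were called, so that test checks the code and not these calls. Promoter windows came from RefSeq (GRCh38.p14), UTRs from GENCODE 29. Python 3.11.15, numpy 2.4.6, pandas 2.3.3 and matplotlib 3.10.9 were used.

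The 10 genes, the lists and the tests were chosen with earlier results of these data known. The GC box, forkhead and TATA searches were added later. Beyond SGK1 and the 10 genes, the rule names up to 3 tested genes of each list with the smallest p, and the 2 most similar profiles of each called gene; other names were chosen after their values were seen or are given only by counts. Same-numbered libraries did not deviate together (correlations 0.116, 0.014 and −0.103), so no block was fitted in the reported test. Replicates were not copies (chi-square per degree of freedom 3.14 to 7.60). Alternatives were other pseudocounts, filters and scalings, quantile normalization, voom, a replicate block and leaving out each library.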

Additional observations from a re-analysis of the deposited data

How the results depend on the processing

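The number of the 10 genes called was 3 under the pseudocounts of 0.1 and 1, no level filter, a mean FPKM of at least 5, quantile normalization and each left-out library. It was 4 with total-read or TPM scaling or a filter at 0.5 FPKM (chosen after seeing the data), and 6 with voom. Of all tested genes, 40.6% were called as reported, 49.0% with total-read scaling and 57.05% with TPM scaling. The share was 35.4% at the 0.5 FPKM filter, 45.03% with voom and 31.59% to 36.38% when a library was left out. With the replicate block 3 of the 10 genes were called, and 4560 genes in all against 4852. Same-numbered libraries did not pair, and without a level filter the block ended the call of ERRFI1 (adjusted p 0.0762) and left 2. In the list counts, coregulators gave 2 as reported, 9 with total-read scaling, 11 with TPM, 4 with quantile normalization, 7 with voom and 2 to 5 when a library was left out. Repressed genes gave 8 as reported, 5 without a filter, 1 at a mean of at least 5 FPKM and 5 to 7 when a library was left out. IL1A was the only repressed gene with a mean of at least 5 FPKM, and as reported it was not called (adjusted p 0.056, limma). Steroid metabolism genes gave 2 as reported, 4 with total-read or TPM scaling and 1 to 2 when a library was left out. Aldosterone-responsive genes gave 9 as reported and 5 at a mean of at least 5 FPKM, where fewer genes were tested. The closest relatives gave 4 as reported, 7 with total-read and 8 with TPM scaling, where 49.0% and 57.05% of all tested genes were called. Chaperones gave 12 as reported, 8 without a filter or with the block, and 8 to 10 when a library was left out. The sign of NR3C1 turned without siControl 2 (−0.054, adjusted p 0.512) and without siSGK1 3 (−0.0034, adjusted p 0.977), over a leave-one-out range of −0.054 to 0.046; that of KLF9 turned with TPM scaling (0.0089). The cause was not tested. Depth limits HSD11B1 and ZBTB16, and counting error is 5.5% to 8.6% per library for FKBP5.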

Other observations

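Of the listed pathway genes, 51 lay below the level filter. No read was found for 6 of them, and in the fit without a filter 5 of the other 45 were called (11.1%, beside 11.8% of all genes in that fit), 1 higher and 4 lower. The count is near the share over all genes, so the 5 are given as single genes, named after their values were seen. CXCL1, a neutrophil chemokine that glucocorticoids repress, rose from 0.243 ± 0.087 to 0.729 ± 0.106 FPKM (SD, n = 3 each, adjusted p 0.0187, limma), from 5 to 35 reads per library. CDKN1C, a cell cycle inhibitor, fell from 0.978 ± 0.065 to 0.422 ± 0.062 FPKM (adjusted p 0.00957). USP2, a deubiquitinase induced by aldosterone in the kidney, fell from 1.07 ± 0.15 to 0.615 ± 0.072 FPKM (adjusted p 0.0425). AKR1C1 and AKR1C2, hydroxysteroid dehydrogenases with nearly identical sequences that can share reads, fell from 0.576 ± 0.035 to 0.233 ± 0.017 FPKM (adjusted p 0.00957) and from 0.875 ± 0.197 to 0.294 ± 0.032 FPKM (adjusted p 0.0159).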
